A study of Saccharomyces cerevisiae with 6 samples.

Results

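The positions described here are the places in the transcribed ribosomal DNA (rDNA) of budding yeast whose sequence matches the consensus of an elemental transcriptional pause. A position was taken when it carried a pyrimidine (C or U), the next base downstream was G, and a G stood 9 or 10 nt upstream. The base sequence alone decided, and no measured value was used. Of the 6858 positions of the rDNA, 6847 (counted from the start of the transcribed rDNA, leaving out both ends, where an element would fall outside) could be scored, and 383 of them, 5.59%, matched. They are called consensus positions below. The 2814 pyrimidines in the same range that lacked either or both G elements served for comparison. Occupancy by RNA polymerase I (Pol I) came from NET-seq, native elongating transcript sequencing, in which the polymerase is immunoprecipitated and the RNA bound to it is sequenced from a linker joined to its 3′ end. The 6 libraries of Saccharomyces cerevisiae came from paf1△ cells (PAF1 deleted), cdc73△ cells (CDC73 deleted) and WT cells, with 2 libraries each. The labels do not say whether the 2 libraries of a genotype came from separate cultures, so p-values measure only the spread between these libraries.

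Pol I makes the long rRNA precursor from the rDNA repeats. Its 18S, 5.8S and 25S parts become mature rRNA, and the spacers between and around them are cut away: the 5′ external transcribed spacer (5′ ETS), the internal transcribed spacers ITS1 and ITS2, and the 3′ ETS. Paf1 and Cdc73 are subunits of the Paf1 complex, which accompanies elongating RNA polymerases. The elemental pause consensus was defined for the RNA polymerase of Escherichia coli. There a G at the upstream edge of the RNA-DNA hybrid, a pyrimidine at the RNA 3′ end and a G as the incoming nucleotide slow the addition of the next nucleotide. Other pauses are thought to develop from that state.

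Consensus positions were spread over the whole unit, which lies on the minus strand of chromosome XII at 460712 to 467569 in build R64. The 25S gene held 208, 18S held 92, the 5′ ETS 45, ITS1 and ITS2 12 each, 5.8S 8 and the 3′ ETS 6. Together the spacers held 75 and the rRNA genes 308. The 5′ ETS was the densest, at 6.52% of its scored positions, and the 3′ ETS the sparsest, at 2.86%. U was the pyrimidine at 247 positions and C at 136. The upstream G stood 9 nt away alone at 173 positions, 10 nt away alone at 149, and at both distances at 61. Consensus positions often lay close together: 180 of them had the next at most 10 nt downstream, so many share part of their surrounding sequence. Outside the bases used to choose them, some differences from other pyrimidines remained. The base 2 nt downstream was U at 22.5%, against 30.1% at other pyrimidines, and the base 11 nt upstream was G at 33.2%, against 27.6%. The stretch from 8 to 1 nt upstream was 47.1% G or C, against 44.3% at other pyrimidines, and the base 1 nt upstream was G at 26.1%, against 24.6%.

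The sequences below run 5′ to 3′ in the RNA sense, from 15 nt before to 10 nt after the position, as the deposited base column gives them. Capitals mark the G or Gs at the upstream edge, the pyrimidine and the G that follows it. They are shown because they belong to consensus positions with the largest changes between genotypes or the highest signal in a genotype.
position 109 (5′ ETS): aacgguGgagagaguCGcuaggugau
position 232 (5′ ETS): cuuuuGcguuuaaccUGaacagucuc
position 499 (5′ ETS): gguauGGugacggagUGcgcugguca
position 2017 (18S): uugucuGcuuaauugCGauaacgaac
position 4424 (25S): aacguaGaguuaaggUGccggaauac
position 4573 (25S): gauggcGcucaagcgUGuuaccuaua
position 5046 (25S): gcuuguGacggcccgUGaaaauccac
position 5248 (25S): ggcguGcuuguggacUGcuugguggg
position 5437 (25S): gauguuGacgcaaugUGauuucugcc
position 6319 (25S): guuuuuGcggcugucUGaucaggcau
position 6491 (25S): caacgGugcacuuggCGgaaaggccu
The windows share the rule's letters and otherwise differ. Position 499 has G at both upstream distances.

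The deposited signal at a position is a read number, set by the authors to add up to 1000000 per library over all but the last 119 positions, so every value is relative to the rest of the rDNA. Depth differed widely. The median consensus position had 2843 and 1395 reads in the paf1△ libraries if their smallest value is 1 read, 2579 and 2073 reads in the cdc73△ libraries, and 43 and 20 reads in the WT libraries. No consensus position was at 0 in a deletion library, against 4 and 7 at 0 in the WT libraries. On the same condition the shallowest deletion library, of paf1△, was 29.5 times as deep as the deepest WT library, so in any comparison with WT an effect of depth and one of genotype cannot be told apart. How much of the signal inside 18S, 5.8S and 25S came from mature rRNA was not measured.

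The first question was whether Pol I signal was raised at consensus positions, and in which genotype. In cdc73△ cells it was: the mean signal was 1.27 ± 0.0277 times that expected from the other pyrimidines of the same region. In paf1△ cells the ratio was 1.01 ± 0.0231 and in WT cells 0.957 ± 0.00296 (SD, n = 2 each). The 2 cdc73△ libraries, at 1.25 and 1.29, lay above the paf1△ libraries (0.994 and 1.03) and the WT libraries (0.955 and 0.959). Consensus positions held 7.78% ± 0.182 of all signal in cdc73△, 5.42% ± 0.0671 in paf1△ and 5.26% ± 0.0330 in WT. The exact two-sided permutation test of 2 libraries against 2 cannot give a p below 0.333, so these ratios are described and not tested. Thinned to the 226202 reads of the shallowest library, the ratios were 1.27 in cdc73△, 1.00 in paf1△ and 0.959 in WT. At full depth, without the highest consensus position of each genotype, they were 1.21 ± 0.0221 in cdc73△, 0.964 ± 0.0333 in paf1△ and 0.932 ± 0.00045 in WT.

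The rise in cdc73△ was larger in the spacers, which are absent from mature rRNA. There consensus positions stood at 2.72 ± 0.0816 times other pyrimidines in cdc73△, at 1.61 ± 0.0914 in paf1△ and at 1.02 ± 0.0542 in WT. In the rRNA genes the ratios were 1.19 ± 0.0289 in cdc73△, 0.979 ± 0.0210 in paf1△ and 0.949 ± 0.0103 in WT. Without the highest gene position of each genotype they were 1.13 ± 0.0228 in cdc73△, 0.930 ± 0.0319 in paf1△ and 0.921 ± 0.00770 in WT. The value in paf1△ spacers rested in part on position 232 of the 5′ ETS, which alone held 21.1% of the signal at spacer consensus positions. Without it the ratio in paf1△ spacers was 1.29 ± 0.0954. In cdc73△ the highest spacer position held 6.26%, and the ratio without it was 2.58 ± 0.0742.

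The typical position moved as well as the mean. Expressed relative to the mean signal of its region, the median spacer consensus position had 1.84 in cdc73△, 0.552 in paf1△ and 0.413 in WT. The same median over other spacer pyrimidines was 0.313 in cdc73△, 0.299 in paf1△ and 0.322 in WT. In cdc73△ 35 of the 75 spacer positions exceeded 2 times their region's mean, against 10 in paf1△ and 10 in WT. Among the 653 other spacer pyrimidines the number was 82 in cdc73△, 40 in paf1△ and 56 in WT. In the top 10% of positions of their own region stood 38.7% and 42.7% of the spacer consensus positions in the cdc73△ libraries, 10.7% and 13.3% in the paf1△ libraries and 9.33% and 10.7% in the WT libraries.

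**Figure D1:**
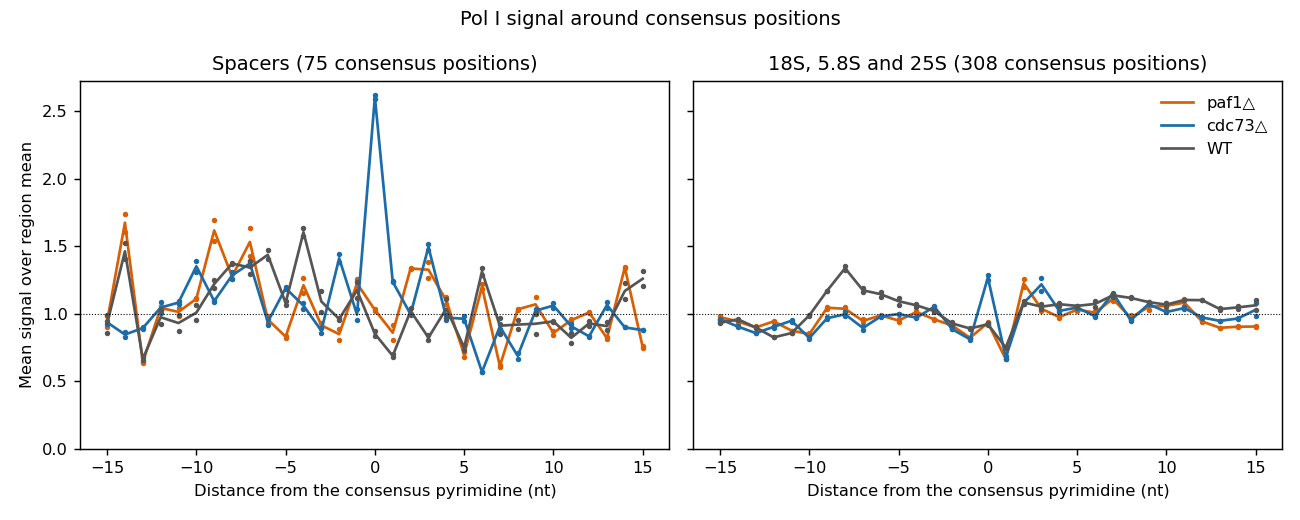
Mean signal over the region mean (y axis) against the distance in nt from the consensus pyrimidine (x axis), for spacers (left) and rRNA genes (right). Lines are means of 2 libraries, points the libraries, and the dotted line the region mean; the cdc73△ line peaks at 0, at 2.61 in spacers and 1.27 in genes, where paf1△ has 1.03 and 0.934 and WT 0.852 and 0.923.

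Aligned on the pyrimidine, the cdc73△ profile of the spacers had a sharp maximum on that very nucleotide. In spacers the mean there was 2.61 ± 0.0234 times the region mean, with 0.994 ± 0.0607 at the base before and 1.24 ± 0.00573 at the base after. In the rRNA genes the value was 1.27 ± 0.0292, with 0.811 ± 0.0111 before and 0.677 ± 0.0130 after. The base 3 nt downstream came close to it in the genes, at 1.22 ± 0.0715, and in cdc73△ replicate 1 it was the higher of the 2 (1.27 against 1.25). The gene value at the pyrimidine also includes position 5046, at 21.0 times its region mean in cdc73△, so the gene maximum rests in part on 1 position. The paf1△ profile had 1.03 ± 0.00954 at the pyrimidine in spacers, below the 1.23 ± 0.0484 of the base before. The WT profile had 0.852 ± 0.0261 there, also below the 1.17 ± 0.0853 of the base before. Neither of these profiles had its maximum at the pyrimidine, in spacers or in genes.

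**Figure D2:**
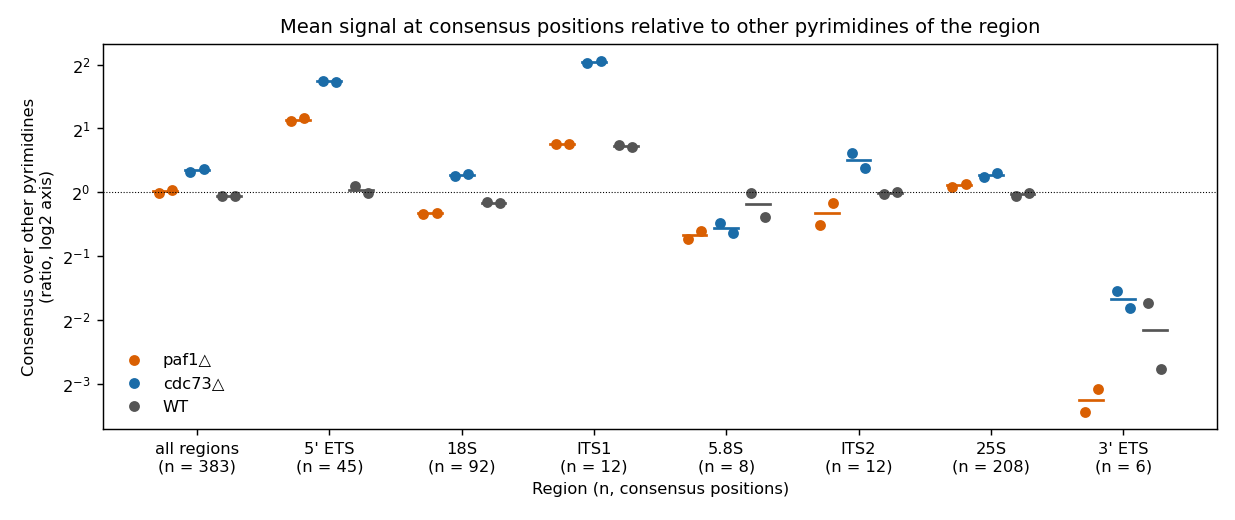
Mean signal at consensus positions over that at other pyrimidines of the same region (y axis, log2), for each region (x axis, with its number of consensus positions). Each point is a library and each short line the mean of 2; the cdc73△ libraries are the highest of the 6 in all regions shown but 5.8S, where WT is higher, and the 3′ ETS, where a WT library lies within their range.

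By region, the highest ratios were in ITS1 and the 5′ ETS of cdc73△ cells. The 12 consensus positions of ITS1 stood at 4.11 ± 0.0406 times other pyrimidines in cdc73△, at 1.69 ± 0.0118 in paf1△ and at 1.65 ± 0.0352 in WT. Without position 2671 the cdc73△ ratio of ITS1 was 3.34 ± 0.0853. Without position 2563 it was 1.37 ± 0.0168 in paf1△ and 1.25 ± 0.0461 in WT. The 45 positions of the 5′ ETS stood at 3.34 ± 0.0168 in cdc73△, 2.204 ± 0.0448 in paf1△ and 1.03 ± 0.0561 in WT. Without position 232 the paf1△ ratio of the 5′ ETS was 1.67 ± 0.0700. In ITS2 the ratio was 1.42 ± 0.157 in cdc73△, 0.798 ± 0.135 in paf1△ and 0.995 ± 0.0149 in WT. Without the highest position of each genotype the ITS2 ratio was 1.19 ± 0.125 in cdc73△, 0.614 ± 0.0671 in paf1△ and 0.702 ± 0.0351 in WT.

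Inside the rRNA genes the differences were smaller. In 18S the ratio was 1.21 ± 0.0242 in cdc73△, 0.794 ± 0.00725 in paf1△ and 0.890 ± 0.00637 in WT. In 25S it was 1.21 ± 0.0346 in cdc73△, 1.08 ± 0.0244 in paf1△ and 0.976 ± 0.0223 in WT. The 25S values leaned on position 5046: without it they were 1.12 ± 0.0270 in cdc73△ and 1.00 ± 0.0406 in paf1△, so the paf1△ libraries then overlapped 1. In 5.8S, with 8 positions, consensus positions lay below other pyrimidines in every library, at 0.681 ± 0.0533 in cdc73△, 0.630 ± 0.04001 in paf1△ and 0.880 ± 0.165 in WT. The 3′ ETS had 6 positions, 4 of them among the last 119 positions, and ratios of 0.314 ± 0.0421 in cdc73△, 0.105 ± 0.0184 in paf1△ and 0.224 ± 0.1097 in WT.

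**Figure D3:**
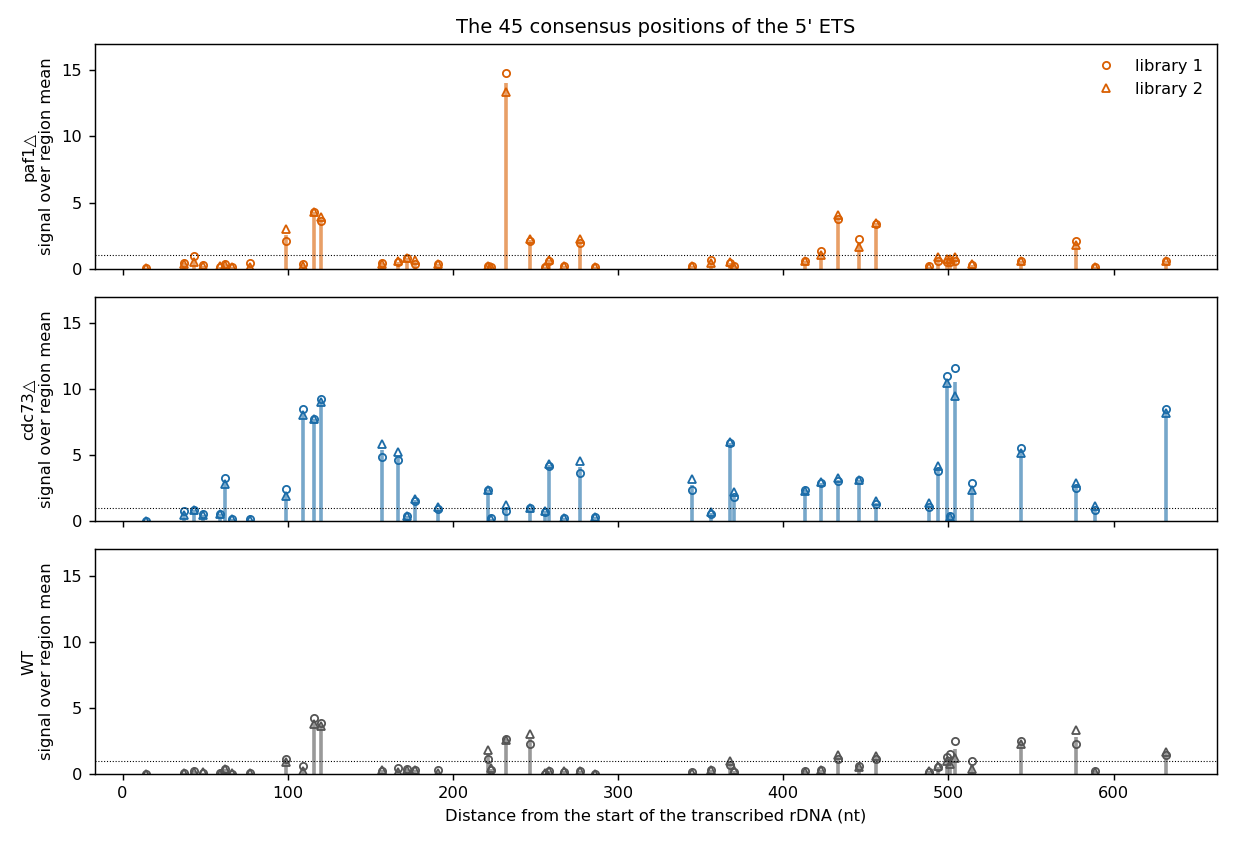
Signal over the region mean (y axis) at the 45 consensus positions of the 5′ ETS, by distance from the start of the transcribed rDNA in nt (x axis), in paf1△, cdc73△ and WT from top to bottom. Lines are means of 2 libraries and symbols the libraries; position 232 stands out in paf1△ at 14.1, whereas cdc73△ has many raised positions, led by 499 and 504 at 10.7 and 10.5.

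In the 5′ ETS many positions took part in the rise in cdc73△. Relative to the region mean, both cdc73△ libraries lay above both WT libraries at 38 of 45 consensus positions and below both at 4 (84.4% and 8.89%). At other pyrimidines of the 5′ ETS they lay above at 126 of 280 and below at 102, and over all its positions at 42.6% and 41.3%. Against the paf1△ libraries they lay above at 32 and below at 7 (71.1% and 15.6%), beside 51.4% and 37.9% of other pyrimidines and 37.7% and 49.0% of all positions. Values scaled to the region say where within the spacer the signal sat, not how much there was.

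Position 499 had a signal of 33.4 and 45.8 in paf1△, 541 and 547 in cdc73△, and 189.5 and 119.5 in WT libraries. Position 632 had 39.0 and 39.4 in paf1△, 418 and 426 in cdc73△ and 208 and 208 in WT. At both the genotypes did not overlap, with cdc73△ highest and paf1△ lowest. Position 232 had the reverse order: 949 and 868 in paf1△, 39.5 and 62.8 in cdc73△ and 385 and 319 in WT.

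The next question was which element of the consensus went with the signal. In cdc73△ spacers the 2 Gs together went with more signal at a pyrimidine than either alone. Pyrimidines with both stood at 2.61 ± 0.0234 times the region mean and those with the downstream G alone at 1.48 ± 0.00509. Those with the upstream G alone stood at 1.02 ± 0.00768, against the 0.983 ± 0.0257 of those with neither. In paf1△ spacers the values were 1.03 ± 0.00954 with both, 0.530 ± 0.0158 with the downstream G alone, 0.754 ± 0.0146 with the upstream G alone and 0.920 ± 0.0222 with neither. In WT spacers they were 0.852 ± 0.0261, 0.752 ± 0.0224, 0.960 ± 0.0124 and 0.845 ± 0.0469 for the same 4 classes. In paf1△ spacers a downstream G without the upstream G thus went with less signal than neither element. The mean with both was above that with neither, but it includes position 232, at 14.1 times its region mean. The value without that position was not computed, so no gain from both Gs is read from paf1△ spacers.

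Both pyrimidines took part in cdc73△ spacers. Consensus positions with U stood at 2.64 ± 0.0277 times the region mean, and those with C at 2.53 ± 0.0149. The downstream G alone went with 1.76 ± 0.00991 at U, above the 0.895 ± 0.0250 of U with neither element. At C it went with 0.738 ± 0.00800, below the 1.18 ± 0.0273 of C with neither. In WT the consensus positions with U stood at 0.904 ± 1.65e-05 and those with C at 0.748 ± 0.0782.

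The same Gs around a purine also went with more signal. In cdc73△ spacers purines with both Gs stood at 1.75 ± 0.00903 times the region mean, above the 0.520 ± 0.00124 of purines with neither. By base, a G between both Gs stood at 2.36 ± 0.0286 there, and a G with neither at 0.665 ± 0.00689. For A the values were 1.23 ± 0.0417 and 0.407 ± 0.00319. Over both purines the values were 1.41 ± 0.00191 and 0.996 ± 0.0231 in paf1△, and 1.46 ± 0.0395 and 0.947 ± 0.0332 in WT. The downstream G alone went with 0.976 ± 0.0245 at purines in cdc73△, 1.81 ± 0.196 in paf1△ and 1.63 ± 0.0101 in WT. Without the upstream G, a downstream G thus went with more signal at spacer purines in all 3 genotypes. At spacer pyrimidines it depended on the base in cdc73△ and WT. In paf1△ it went with less signal at U (0.580 ± 0.0102 against 0.834 ± 0.0217 with neither) and at C (0.395 ± 0.0310 against 1.11 ± 0.0232). In WT U before G without the upstream G stood at 0.891 ± 0.00138 and U with neither at 0.769 ± 0.0552, whereas C had 0.375 ± 0.0795 and 1.01 ± 0.0284. These differences were not tested.

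**Figure D4:**
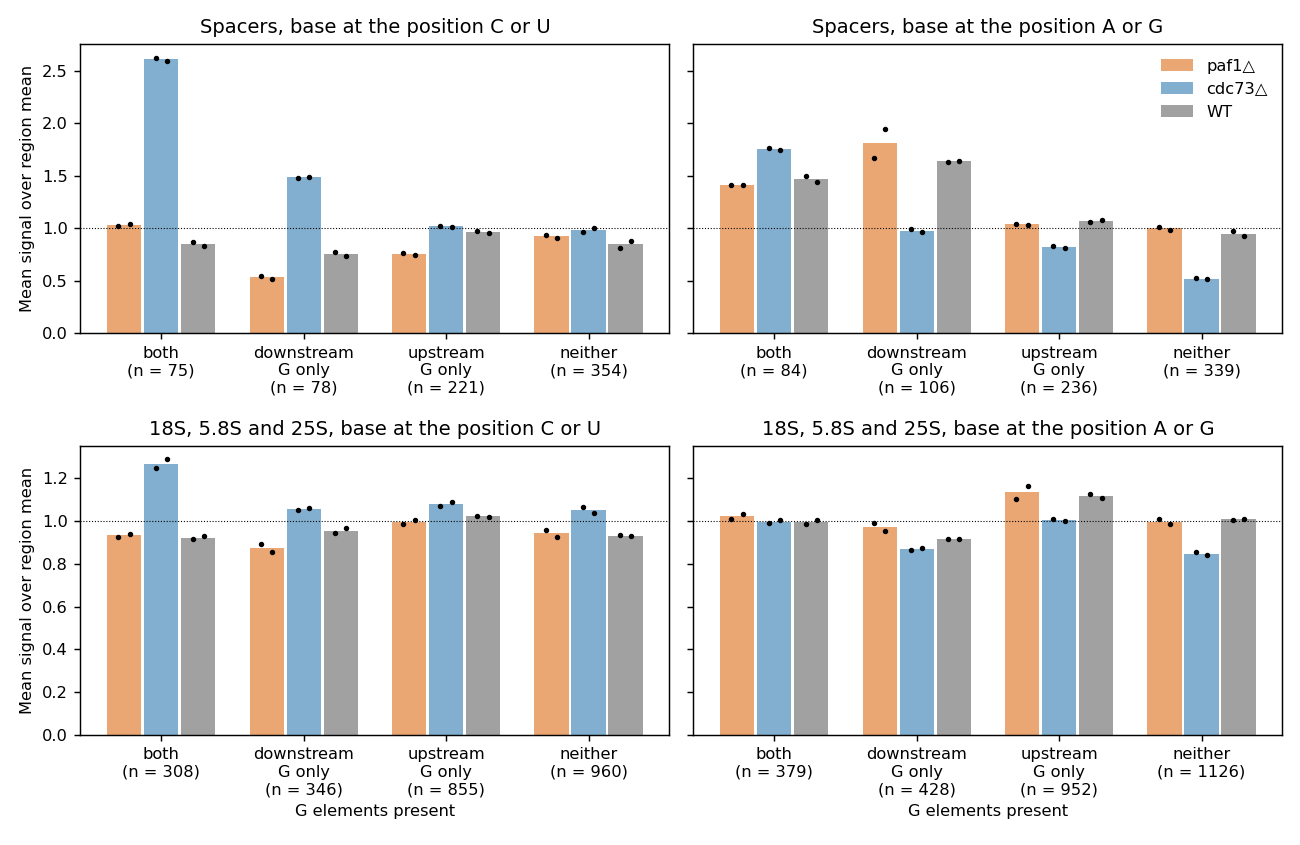
Mean signal over the region mean (y axis) by the G elements present (x axis, with the number of positions), for pyrimidines (left) and purines (right), in spacers (top) and rRNA genes (bottom). Bars are means of 2 libraries starting at 0, points the libraries; the bar for spacer pyrimidines with both elements reaches 2.61 in cdc73△, against 1.03 in paf1△ and 0.852 in WT.

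Within the rRNA genes the classes differed less. Pyrimidines with both elements stood at 1.27 ± 0.0292 times the region mean in cdc73△, where the other 3 pyrimidine classes lay between 1.05 and 1.08. In paf1△ the 4 classes lay between 0.873 and 0.996, and in WT between 0.923 and 1.02. Gene purines with both elements stood at 0.998 ± 0.0112 in cdc73△, 1.02 ± 0.0149 in paf1△ and 0.996 ± 0.0116 in WT. Those with neither stood at 0.849 ± 0.00796 in cdc73△, 0.998 ± 0.0160 in paf1△ and 1.01 ± 0.00352 in WT. In cdc73△ gene purines with the upstream G alone stood at 1.01 ± 0.00492, and with the downstream G alone at 0.870 ± 0.00591.

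The distance of the upstream G went with different levels, in an order that changed between regions and rested in part on single positions. Over all regions of cdc73△, positions with the G 9 nt upstream alone stood at 1.39 ± 0.0263 times other pyrimidines, and those with it 10 nt upstream alone at 1.13 ± 0.0235. Positions with both stood at 1.30 ± 0.0412. The class with the G at 9 nt alone includes position 5046, at 21.0 times its region mean in cdc73△ and 15.4 in paf1△. The ratios of that class without it were not computed. In paf1△ the ratios with the G at 9 nt alone and at 10 nt alone were 1.12 ± 0.0274 and 0.911 ± 0.0158, and in WT 1.01 ± 0.00382 and 0.919 ± 0.00601. In the spacers of cdc73△ the G at 9 nt alone went with 2.84 ± 0.0995, at 10 nt alone with 2.26 ± 0.0747 and both with 3.19 ± 0.0434. In paf1△ spacers the first 2 were 1.43 ± 0.140 and 2.16 ± 0.0397, and in WT spacers they were 1.04 ± 0.141 and 1.10 ± 0.0756. The paf1△ value at 10 nt comes from 24 positions that include position 232, at 14.1 times its region mean. The ratio without it was not computed, so no order of the 2 distances is read from paf1△ spacers. The base just before the pyrimidine, which the rule did not use, went with a difference too. Set against other pyrimidines after the same base, consensus positions after G stood at 1.62 ± 0.0512 in cdc73△, 1.19 ± 0.00279 in paf1△ and 0.986 ± 0.0233 in WT. Position 5046 follows a G too, so these values in the deletions rest in part on it. Those after A stood at 1.03 ± 0.00157 in cdc73△, 0.785 ± 0.0398 in paf1△ and 0.854 ± 0.0224 in WT. Those after C stood at 1.37 ± 0.0720 in cdc73△, 1.22 ± 0.0517 in paf1△ and 1.15 ± 0.0244 in WT, and those after U at 1.05 ± 0.00561 in cdc73△, 0.884 ± 0.0112 in paf1△ and 0.846 ± 0.0139 in WT. The order was another in cdc73△ spacers, with 3.26 ± 0.00491 after U, 2.95 ± 0.0744 after G, 2.63 ± 0.0169 after A and 2.35 ± 0.179 after C.

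Single positions were then compared between genotypes with limma on log2(value + pseudocount), fitted to all positions with values above 0 in at least 2 of the 4 libraries, with Benjamini-Hochberg adjustment over all of them and a threshold of 0.05. All 383 consensus positions passed that filter in each comparison. Fold changes on this scale understate the change of low positions. The comparisons share libraries, so their values are set side by side only.

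**Figure D5:**
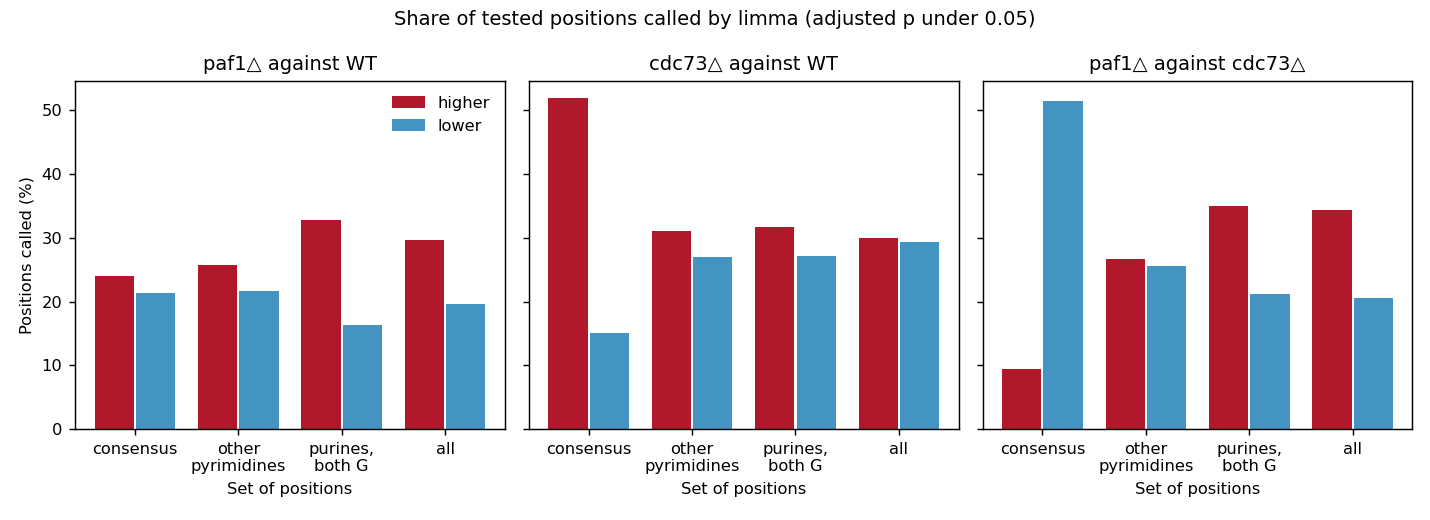
Percent of tested positions called higher (red) or lower (blue) by limma (y axis) in the 3 comparisons, for consensus positions, other pyrimidines, purines with both G elements and all positions (x axis). Consensus positions reach 52.0% higher in cdc73△ against WT and 51.4% lower in paf1△ against cdc73△, and in paf1△ against WT lie at 24.0% higher and 21.4% lower.

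In paf1△ against WT the shares of consensus positions called lay near those of other pyrimidines. Of 383, 92 were called higher and 82 lower, or 24.0% and 21.4%, where 29.6% and 19.6% of all tested positions were, 49.2% in all. The libraries of both genotypes did not overlap at 284 consensus positions, against 75.9% of all. Over other pyrimidines the shares were 25.7% and 21.7%. The median log2 change was 0.07 at consensus positions and 0.09 over all. After scaling every library to 1 common median, which took the median of all positions to -0.01, the split was 74 higher and 102 lower, beside 1502 higher and 1655 lower of all 6839 tested positions. Without paf1△ replicate 1, 84 were called (21.2% of all positions), and without paf1△ replicate 2, 94 (24.9% of all), against 174 with both.

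By region these counts followed the share of the region itself in several cases. The 5′ ETS had 6 higher and 18 lower among its 45 (13.3% and 40.0%), where 11.8% and 43.6% of all its positions were called. In 5.8S 7 of 8 were higher and none lower, where 62.2% of all its positions were higher. The 25S gene had 66 higher and 45 lower among its 208 (31.7% and 21.6%), where 36.1% and 17.4% of all were. The 18S gene stood apart from this: 10 of 92 were higher and 14 lower (10.9% and 15.2%), where 29.4% and 16.4% of all its positions and 26.3% and 17.8% of its other pyrimidines were. ITS1 had 2 of 12 higher and 5 lower, beside 9.44% and 23.1% of all its positions. In ITS2 1 of 12 was higher and none lower, and limma called none of the 6 in the 3′ ETS.

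The 8 largest rises in paf1△ all lay in 25S. Position 5046 (chromosome XII 462524) had a signal of 3076 and 2267 in paf1△ and 423 and 434 in WT libraries, a log2 fold change of 2.50 (SE 0.22) and limma gave an adjusted p of 0.000158. Position 6491 (461079) had 872 and 913 in paf1△ and 115 and 159 in WT (log2 2.36). Positions 4274, 3938, 5437, 5919, 4884 and 5044 followed, with log2 changes between 1.43 and 2.12. Position 5044 lies 2 nt before 5046, so the pair shares most of its sequence. In all of these the paf1△ libraries lay above both WT libraries.

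Among the 8 largest falls 5 lay in 25S, 2 in the 5′ ETS and 1 in 18S. Position 5248 (462322) had 69.8 and 111 in paf1△ and 808 and 894 in WT, a log2 fold change of -2.71 (SE 0.17) and limma gave an adjusted p of 6.14e-05. Position 4573 (462997) had 45.4 and 89.5 in paf1△ and 510 and 655 in WT (log2 -2.47). Position 544 of the 5′ ETS had 39.1 and 38.0 in paf1△ and 367 and 283 in WT (log2 -2.10). Positions 221, 4424, 6536, 2017 and 5329 followed, with log2 changes between -1.98 and -1.60. Position 4424, the highest consensus position of WT relative to its region at 9.36 times the mean, had 389 and 486 in paf1△ and 1451 and 1655 in WT.

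In cdc73△ against WT the consensus positions were called higher far more often than positions at large. Of 383, 199 were higher and 58 lower, or 52.0% and 15.1%, where 30.0% and 29.4% of all tested positions were, 59.4% in all. The libraries did not overlap at 328 consensus positions, against 81.2% of all. Over other pyrimidines the shares were 31.0% and 27.0%, and over purines with both Gs 31.7% and 27.2%. The median log2 change was 0.455 at consensus positions, 0.0214 at other pyrimidines and -0.00494 over all. At least 2-fold higher were 85, and at least 2-fold lower 20, beside 723 and 776 of all 6839 tested positions and 326 and 295 of the 2807 other pyrimidines tested. Without cdc73△ replicate 2, 156 were called (125 higher and 31 lower, with 31.3% of all positions called), against 257 with all libraries. The depth of the libraries differed most in this pair and in the one before, and after thinning to equal depth 148 were higher and 36 lower, with 41.9% of all positions called.

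The excess of higher calls was found in spacers and genes alike. In the spacers 40 of 75 were higher and 11 lower (53.3% and 14.7%), where 15.6% and 40.8% of all spacer positions were. In the genes 159 of 308 were higher and 47 lower (51.6% and 15.3%), where 34.1% and 26.2% of all gene positions were. The excess over the region's own share was widest in the spacers. In the 5′ ETS 23 of 45 were higher (51.1%) and 9 lower, where 13.6% and 53.3% of all its positions were. In ITS1 7 of 12 were higher and none lower, beside 14.7% and 33.3% of all its positions. In ITS2 10 of 12 were higher and 2 lower, beside 30.3% and 26.4%. The 18S gene had 52 higher and 12 lower among its 92 (56.5% and 13.0%), beside 28.4% and 30.4%. The 25S gene had 102 higher and 35 lower among its 208 (49.0% and 16.8%), beside 36.5% and 24.6%. In 5.8S 5 of 8 were higher and none lower, beside 45.5% and 14.7%. None of the 6 positions of the 3′ ETS was called by limma, beside 7.21% higher and 28.4% lower of all its positions.

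Position 5046 was again first among the rises, with 3666 and 4169.9 in cdc73△ and 423 and 434 in WT (log2 3.07, SE 0.15, adjusted p 0.000119 by limma). Position 6319 (461251) had 1992 and 2407 in cdc73△ and 310 and 438 in WT (log2 2.43). Position 109 of the 5′ ETS (467461), with C before G, had 421 and 420.2 in cdc73△ and 87.5 and 26.6 in WT (log2 2.27). Position 3049 in ITS2 (464521) had 247 and 235 in cdc73△ and 29.2 and 17.7 in WT (log2 2.08). In the WT libraries 1 read counts for 2.08 in replicate 1 and 4.43 in replicate 2. Both WT values at position 3049, and that of replicate 2 at position 109, thus rest on few reads. The other 4 of the 8 largest rises, positions 6491, 4274, 3938 and 3283, lay in 25S and had log2 changes between 2.36 and 2.92.

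A consensus position could also fall. Position 4573 had 49.3 and 40.03 in cdc73△ and 510 and 655 in WT (log2 -2.81, SE 0.15, adjusted p 0.000140 by limma). Position 5248 had 96.0 and 94.1 in cdc73△ and 808 and 894 in WT (log2 -2.68). Position 3070 in ITS2 (464500) had 7.54 and 9.82 in cdc73△ and 158 and 217 in WT (log2 -2.12). Position 232 of the 5′ ETS (467338) had 39.5 and 62.8 in cdc73△ and 385 and 319 in WT (log2 -2.06). Positions 6536, 247, 2027 and 4392 completed the 8 largest falls, with log2 changes between -2.09 and -1.42.

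The deletions were then compared directly, where depths overlapped. In paf1△ against cdc73△, 36 of 383 consensus positions were higher and 197 lower, or 9.40% and 51.4%, where 34.4% and 20.6% of all tested positions were, 55.0% in all. The libraries did not overlap at 322 consensus positions, against 79.8% of all. Other pyrimidines had 26.7% higher and 25.5% lower. The median log2 difference was -0.31 at consensus positions, 0.01 at other pyrimidines and 0.07 over all. The spacers went further, with 9 of 75 higher and 52 (69.3%) lower, where 44.0% and 24.9% of all spacer positions were. With all libraries thinned to equal depth 5 consensus positions were higher and 69 lower, beside 480 higher and 337 lower of all 6677 positions tested.

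The largest differences at consensus positions lay in the 5′ ETS. Position 109 had 21.8 and 13.7 in paf1△ and 421 and 420.2 in cdc73△, a log2 difference of -2.85 (SE 0.11) with an adjusted p of 1.82e-06 by limma. Positions 499, 504, 632, 368, 157 and 544 of the 5′ ETS and position 2671 of ITS1 followed, with log2 differences between -2.77 and -1.90. Position 2671 (464899) had 21.8 and 19.7 in paf1△ and 235 and 214 in cdc73△. At all 8 the 2 deletions were far apart and their libraries close together.

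In the other direction position 232 had 949 and 868 in paf1△ and 39.5 and 62.8 in cdc73△ (log2 3.29, SE 0.14, adjusted p 2.26e-06 by limma). Position 5437 in 25S (462133) had 886 and 1462 in paf1△ and 474 and 356 in cdc73△ (log2 1.37). After thinning its adjusted p by limma was 0.0573. Position 456 of the 5′ ETS had 219 and 226 in paf1△ and 63.6 and 79.8 in cdc73△ (log2 1.18). The remaining 5 of the 8, positions 3324, 6575, 5561, 5430 and 433, differed by log2 0.53 to 0.64.

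Local pauses gave a further view. Each position was set against the 50 nt on either side of it, and called a local pause where its signal passed their mean by more than 3 SD in the 2 libraries of that genotype. Of the 383 consensus positions 16 (4.18%) were local pauses in cdc73△, 8 (2.09%) in paf1△ and 2 (0.522%) in WT. Other pyrimidines were local pauses at 2.24% in cdc73△, 1.17% in paf1△ and 1.46% in WT. All scored positions were at 1.97% in cdc73△, 1.66% in paf1△ and 1.90% in WT. None of the 383 was a local pause in all 3 genotypes, as were only 14 of all 6847 positions. In both deletions but not in WT there were 6 (1.57%), beside 0.599% of all positions and 0.604% of other pyrimidines. All 6 lay in 25S (2.88% of its 208), where 0.766% of all positions and 0.907% of other pyrimidines were such pauses. In the 5′ ETS, 5 of 45 were local pauses in cdc73△, at positions 120, 368, 499, 504 and 632, and 1 in paf1△, at position 232. Over all positions of the 5′ ETS 3.48% were local pauses in cdc73△ and 2.32% in paf1△, so the single paf1△ position is near that share. The 2 of WT, positions 3621 and 4424, lay in 25S.

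The highest consensus positions relative to their regions differed between WT and the deletions. In cdc73△ they were position 5046 at 21.0 times the region mean, 6319 at 11.8, 499 at 10.7, 504 at 10.5 and 2671 at 9.72, all U. In paf1△ they were 5046 at 15.4, 232 at 14.1, 5437 at 6.75, 3938 at 6.68 and 6319 at 5.98, also all U. In WT they were 4424 at 9.36, 5248 at 5.13, 2017 at 4.79, 3070 at 4.53 and 5783 at 4.34, of which only 2017 was C. The top 5 of WT shared no position with those of either deletion.

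Across the 383 positions the 2 libraries of a genotype ranked alike, at a Spearman rho of 0.987 in cdc73△, 0.976 in paf1△ and 0.948 in WT, given as a description over positions that share a library. Between the deletions rho was 0.716 to 0.751 at consensus positions and 0.851 to 0.882 at other pyrimidines. Between paf1△ and WT it was 0.701 to 0.761 at consensus positions and 0.709 to 0.750 at other pyrimidines. Between cdc73△ and WT it was 0.566 to 0.633 at consensus positions and 0.645 to 0.682 at other pyrimidines.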

How the data were processed

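Pol I NET-seq libraries of paf1△, cdc73△ and WT cells, 2 each, were read from 3 deposited tables, 1 per pair of genotypes. The submitters' processing notes name STAR 2.7.1a, cutadapt 3.4, bedtools 2.28.0 and SAMtools 1.6, with build R64. The sources used here do not give the read end behind a position, the use of molecular identifiers or the treatment of rDNA repeats. The deposited signal is a read number that the authors scaled to a sum of 1000000 over all but the last 119 positions, as the values show. Dividing a library by its smallest value left 99.9% to 100% of its positions within 0.1 of a whole read. For paf1△ a stricter check of these steps was not met, so no count test was run there.

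Each value was compared with pyrimidines of the same region that lack either or both Gs: the mean at consensus positions was divided by the mean of each position's own region in that set. Because values were scaled, limma 3.58.1 (R 4.3.3, a mean-variance trend in eBayes) was run on log2(value + pseudocount), the pseudocount being 0.5 times the median of values above 0 (48.1 for paf1△ against WT, 44.3 for cdc73△ against WT, 47.4 for paf1△ against cdc73△). edgeR 4.0.16 on whole reads was an alternative for cdc73△ against WT. The positions named are the 8 largest rises and falls of each comparison (limma adjusted p under 0.05, no overlap of libraries, mean not under the median of tested positions) and the 5 highest of each genotype. Local pauses of each genotype named by region were chosen after their values were seen. The fit and the ratio were tested on simulated data. Members, lists and tests were chosen with earlier results of these data known. Ratios and figures were made in Python 3.11.15 with pandas 2.3.3, numpy 2.4.6 and matplotlib 3.10.9.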

Additional observations from a re-analysis of the deposited data

Results flagged for a closer look

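In several regions the libraries of 1 genotype all lay above 1, and those of another all below 1, in the ratio of consensus positions to other pyrimidines. These differences were not tested: an exact permutation test of 2 libraries against 2 cannot go below 0.333. For cdc73△ against WT the ratio differed by 0.312 over all regions (1.27 against 0.957), by 0.2402 in the rRNA genes (1.19 against 0.949), by 0.318 in 18S (1.21 against 0.890) and by 0.2296 in 25S (1.21 against 0.976). For paf1△ against cdc73△ it differed by -0.210 in the rRNA genes (0.979 against 1.19), by -0.414 in 18S (0.794 against 1.21) and by -0.618 in ITS2 (0.798 against 1.42). For paf1△ against WT it differed by 0.101 in 25S (1.08 against 0.976). The 25S value of paf1△ fell to 1.00 without position 5046, with 1 library on each side of 1.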

How the results depend on the processing

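Under all 11 alternatives other than leaving out a library, both cdc73△ libraries had a higher ratio of consensus positions to other pyrimidines than the other 4 libraries. The paf1△ libraries lay above both WT libraries under 7 of the 11. In cdc73△ the ratio was 1.305 by geometric means, 1.47 by medians, 1.24 against pyrimidines lacking both Gs, 1.53 scaled to the local window, 1.298 without 10 nt around mature ends, 2.72 in spacers, and 1.36 or 1.15 with the G 9 or 10 nt upstream alone as the element. In paf1△ it was 1.08 scaled to the window, 1.05 without mature ends, 1.61 in spacers, and 1.08 or 0.915 with the G 9 or 10 nt upstream. In WT it was 0.997 by geometric means, 0.977 with values capped at the 99th percentile, 0.987 by medians, 0.962 against the same base, 0.987 against pyrimidines lacking both Gs, 0.922 scaled to the window, 0.971 without mature ends, 1.02 in spacers, and 0.987 or 0.919 with the G 9 or 10 nt upstream. Single libraries gave 1.25 and 1.29 in cdc73△, 0.994 and 1.03 in paf1△ and 0.955 and 0.959 in WT.

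Leaving out each library gave 84 to 239 called consensus positions in paf1△ against WT, 156 to 292 in cdc73△ against WT and 187 to 236 in paf1△ against cdc73△, against 174, 257 and 233 with all libraries. The share of all positions called moved alongside, over 21.2% to 61.6%, 31.3% to 74.9% and 39.1% to 57.3%, against 49.2%, 59.4% and 55.0%. With 1 library in an arm, its spread is assumed to be that of the other genotype. Thinning gave 115, 184 and 74 (30.0%, 41.9% and 12.2% of all positions), with fewer reads by construction. edgeR on whole reads called 216 higher and 57 lower in cdc73△ against WT (63.2% of all positions), and with size factors from relative log expression 208 and 65 (63.5%). Scaled to each region's mean, an alternative chosen after seeing the data, 206 were higher and 56 lower there (58.8%). Replicate numbers are not said to pair libraries, and same-numbered libraries deviated together with r = 0.114 for paf1△ and WT, 0.0359 for cdc73△ and WT and -0.227 for paf1△ and cdc73△. The replicate block gave 185, 279 and 227 called positions (50.9%, 62.5% and 51.9% of all). With crossed numbers, added after seeing the data, paf1△ against cdc73△ gave 268 (62.2%). Of 720 values of named positions under alternatives, 5 lost significance and none reversed. Those positions had been named for large changes that passed limma in the main fit to the same data, so this count gives no independent support. The median of 20 reads at consensus positions in the shallower WT library limits the precision of every comparison with WT.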

Other observations

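The bases around consensus positions had patterns of their own. The G just downstream of the pyrimidine was low over all regions pooled, at 0.703 ± 0.0150 times the region mean in paf1△, 0.787 ± 0.00937 in cdc73△ and 0.738 ± 0.00527 in WT (SD, n = 2 each). In the spacers alone it stood at 0.860 ± 0.0809 in paf1△, 1.24 ± 0.00573 in cdc73△ and 0.689 ± 0.0153 in WT. In the rRNA genes the base 8 nt upstream of the pyrimidine stood at 1.04 ± 0.0182 in paf1△, 0.996 ± 0.0197 in cdc73△ and 1.34 ± 0.0214 in WT. The base 3 nt downstream stood at 1.33 ± 0.0853 in paf1△ spacers, 1.49 ± 0.0283 in cdc73△ spacers and 0.824 ± 0.0266 in WT spacers. Bases at these distances belong to many overlapping windows, and the values are given without a test.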
